A study of Arabidopsis thaliana with 2 samples.

Results

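Kinase, phosphatase and receptor genes were collected from a list of LEAFY (LFY) binding regions in Arabidopsis thaliana. A gene was taken when it was the nearest promoter of a peak and the description in the authors' annotation held the word kinase, phosphatase or receptor without the word hypothetical. One trehalose-phosphate phosphatase gene (AT2G22190) met these words and was set aside as a gene of sugar metabolism. This gave 25 genes of the 512 that were nearest to a peak, and 25 of the 529 peaks. Each of the 25 genes had 1 peak, and all 25 were found in RefSeq (TAIR10.1), which gave the symbols. For some genes, such as AT4G23740, the symbol there is only the locus name. Choosing by words made no use of score, position or width, but every gene had to be named by a peak to be considered.

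The list came from chromatin immunoprecipitation and sequencing (ChIP-seq) of inflorescence tissue from ap1 cal1 plants, which are mutant for the floral regulators APETALA1 and CAULIFLOWER. The plants carried 35S;LFY-GR, a fusion of LFY to the hormone-binding part of the glucocorticoid receptor driven by a promoter that is active in most cells. They were grown for 4 weeks, treated with 10 µM dexamethasone and collected after 4 h. One library was precipitated with a polyclonal rabbit serum against LFY, and the other was input chromatin of the same kind of plants without antibody. Both libraries carry the mutations, the construct and the treatment, so nothing in the list separates the fusion protein from native LFY or treated from untreated plants. The peak set is named in the header with a number that the title of the library lacks, so its link to that library rests on the similar name. With 1 library of each kind there is no error between libraries, and the values below are descriptions of 1 list without a test. Read counts were not used here, so depth is unknown, and intervals on shares and medians cover counting error only.

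Plants sense peptides and steroids at the cell surface mainly through receptor kinases, proteins with an outer sensing part and an inner kinase part. Other receptors, such as those for abscisic acid, are soluble and act by blocking a phosphatase. Kinases add phosphate to proteins or small molecules, phosphatases remove it, and kinase regulators bind a kinase and change its activity. In inflorescences such pathways are known for setting the size of the shoot meristem, the growth and spacing of flowers and the shedding of floral organs. LFY itself is a transcription factor that directs the change from shoot to flower.

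Genes whose description names both a receptor and a kinase were CORYNE (CRN), HAESA (HAE) and ERECTA-LIKE 1 (ERL1). All 3 peaks covered the transcription start site (TSS) of their gene, and they were 1662 to 2021 bp wide. CRN (AT5G13290), an inactive kinase that acts with CLAVATA2 in the perception of the peptide CLAVATA3 in the shoot meristem, had a peak on chromosome 5 from 4254579 to 4256599 (TAIR10). It had a score of 582.4, rank 52 of 529, where the score is the deposited value that the authors' peak caller gave each peak. This peak was annotated to the CRN promoter and was centred 695 bp upstream of the TSS. HAE (AT4G28490), the receptor that controls the shedding of floral organs, had a peak on chromosome 4 from 14076994 to 14079003 with a score of 233.7 (rank 163). Its centre was 141 bp downstream of the TSS, in exon 1 of 2. The third peak, at ERL1 (AT5G62230), a receptor kinase of organ growth and stomatal spacing, lay on chromosome 5 from 24995213 to 24996874. It scored 90.5 (rank 350) and was centred 86 bp upstream of the TSS, which was the shortest distance among the 25. The order CRN, HAE, ERL1 by score spans both the upper and the lower part of the list.

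A group of 4 further genes was described only as leucine-rich repeat kinases, a family in which many members are cell surface receptors. Their scores ran from 54.5 to 597.8, and none of their peaks was annotated to a promoter. AT4G23740 had the strongest peak of all 25 genes, with a score of 597.8 and rank 49. That peak was intergenic on chromosome 4 from 12370292 to 12371388, and its centre was 4454 bp downstream of the TSS, the longest distance among the 25. The next peak along the chromosome was 1354 bp away and was assigned to CRF2 (AT4G23750), a cytokinin response factor gene that is the neighbour of AT4G23740, with a score of 243.9. AT5G51560 had an intergenic peak on chromosome 5 from 20942805 to 20943854, scored 266.1 (rank 139) and centred 2356 bp upstream. The peaks of AT1G25320 and AT5G43020 were centred in exon 1 of 2. AT1G25320 had the widest peak of the 25 at 2152 bp (chromosome 1 from 8877323 to 8879474), with a score of 108.5. It was centred 541 bp downstream of the TSS and covered it. The peak of AT5G43020 (chromosome 5 from 17256120 to 17257646) scored 54.5 and was centred 859 bp downstream, and its edge was 95.5 bp short of the TSS.

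Receptors without a kinase were PYL5 and RLP29. PYL5 (AT5G05440), a soluble receptor that binds abscisic acid and then blocks phosphatases of the ABI1 type, had a peak on chromosome 5 from 1608914 to 1610081. The peak covered the TSS, was centred 247 bp downstream of it in the only exon of the gene, and scored 442.3 (rank 81). RLP29 (AT2G42800), a receptor-like protein that lacks a kinase part, had a peak on chromosome 2 from 17810759 to 17812251 with a score of 88.5 (rank 359). This peak was centred 1915 bp upstream of RLP29, at the transcription termination site of PP5.2 (AT2G42810), which itself encodes a protein phosphatase. PP5.2 was not counted among the 25, because its promoter was not the nearest.

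**Figure D1:**
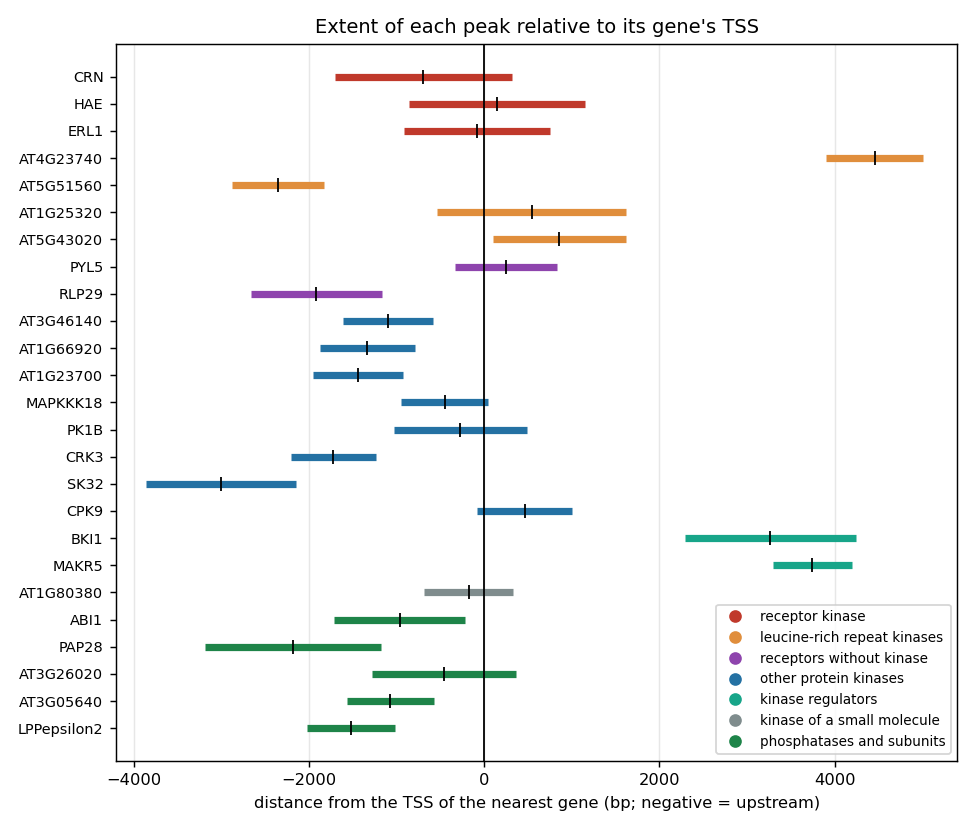
Extent of the 25 peaks relative to the TSS of the nearest gene in bp, negative values being upstream. Each bar runs from peak start to peak end, the black tick is the peak centre, and colour gives the kind of protein. Bars cross the line at 0 for 10 of the 25 genes, among them CRN, HAE and ERL1, while all 5 phosphatase peaks are centred upstream and both kinase regulator peaks lie downstream.

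Phosphatases numbered 5, and all 5 peaks were centred upstream of the TSS, by 456 to 2186 bp. ABI1 (AT4G26080), a type 2C protein phosphatase that holds back abscisic acid signalling, had the strongest, with a score of 312.6 (rank 117). It lay in the ABI1 promoter on chromosome 4 from 13222504 to 13223996, centred 966 bp upstream, with its edge 219.5 bp from the TSS. PAP28 (AT5G57140), a purple acid phosphatase gene, followed with a score of 122.5 (rank 283, chromosome 5 from 23146690 to 23148699). The centre of that peak was 2186 bp upstream of PAP28 and inside exon 3 of 4 of the neighbouring gene AT5G57130, which the gene table lists with the synonym SMXL5. AT3G26020, which encodes a B' eta regulatory subunit of protein phosphatase 2A, had a promoter peak (chromosome 3 from 9512417 to 9514064) that scored 101.4 and covered the TSS. The weakest peaks of the 25 were at AT3G05640, described as a putative type 2C phosphatase (chromosome 3 from 1643832 to 1644814), and at LPPepsilon2 (AT5G66450), a lipid phosphate phosphatase gene (chromosome 5 from 26532595 to 26533599). These scored 53.4 and 51.3, ranks 511 and 525, and both were intergenic, centred 1070 and 1517 bp upstream. Of the 5 phosphatase peaks, that of ABI1 alone was in the upper part of the list by score (the first 265 ranks).

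Protein kinases without a receptor or leucine-rich repeat in the description numbered 8, with scores from 56.5 to 499.0. Of these peaks, 7 were centred upstream of the TSS and 3 covered it. The strongest was assigned to AT3G46140, a protein kinase-related gene, with a score of 499.0 (rank 67, chromosome 3 from 16946478 to 16947500). Its centre was 1101 bp upstream of that gene and at the transcription termination site of the neighbouring gene MYB48. AT1G66920, a putative serine/threonine kinase gene, and AT1G23700, a protein kinase gene, had intergenic peaks with scores of 492.8 (rank 69, chromosome 1 from 24968314 to 24969398) and 165.8 (rank 220, chromosome 1 from 8382894 to 8383917). These peaks were centred 1334 and 1440 bp upstream, and both centres lay inside annotated transposons.

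MAPKKK18 (AT1G05100), the first kinase of a mitogen-activated cascade that responds to abscisic acid, had a promoter peak on chromosome 1 from 1468656 to 1469658. It scored 102.2, the middle value of the 25, and was centred 453 bp upstream with its edge over the TSS. PK1B (AT2G28930), a receptor-like cytoplasmic kinase gene also called APK1B, had a promoter peak (97.6, chromosome 2 from 12423271 to 12424793) centred 271 bp upstream. Peaks of lower score were at the calcium pathway genes CRK3 (AT2G46700, 73.6, intergenic, 1721 bp upstream) and CPK9 (AT3G20410, 56.5, 463 bp downstream). The CPK9 peak (chromosome 3 from 7116121 to 7117208) was centred in exon 1 of 8 and covered the TSS. CRK3 encodes a kinase related to calcium-dependent kinases and CPK9 a calcium-dependent kinase. SK32 (AT4G00720), a shaggy-like kinase gene of the GSK3 type, was assigned the peak on chromosome 4 from 299468 to 301179 (57.1), which is centred 3009 bp upstream of SK32. That centre is in intron 8 of 8 of ANL2 (AT4G00730), an epidermal homeobox gene, and is the only one of the 25 in an intron.

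Among proteins that act on kinases were BKI1 and MAKR5. BKI1 (AT5G42750), an inhibitor that binds the brassinosteroid receptor kinase BRI1 at the plasma membrane, was assigned a peak with a score of 256.0 (rank 145, chromosome 5 from 17139922 to 17141869). Its centre was 3265 bp downstream of the BKI1 TSS and at the transcription termination site of AT5G42740. MAKR5 (AT5G52870), a membrane-associated kinase regulator gene, had an intergenic peak with a score of 70.6 (rank 418) centred 3745 bp downstream. At 907 bp it was the narrowest of the 25. The remaining gene, AT1G80380, encodes D-glycerate 3-kinase, an enzyme of photorespiration that phosphorylates a small molecule. Its promoter peak scored 66.9 (rank 431, chromosome 1 from 30216435 to 30217439), was centred 179 bp upstream and covered the TSS.

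**Figure D2:**
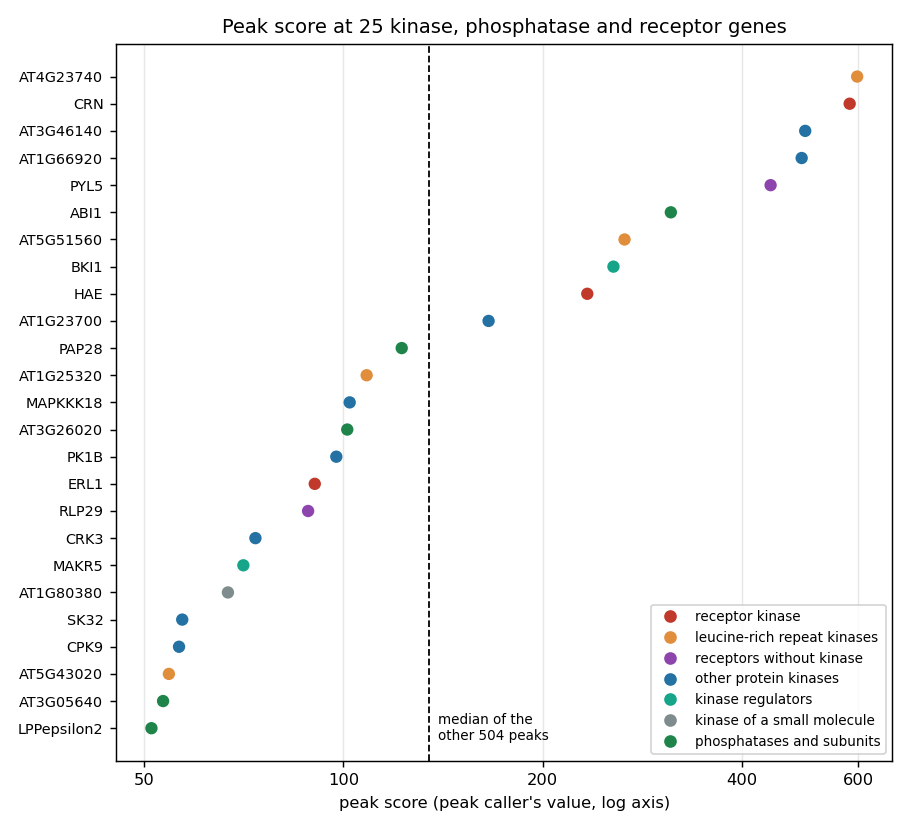
Peak score of each of the 25 genes on a log axis, ordered from highest to lowest and coloured by kind of protein. The dashed line is the median of the other 504 peaks (135), and 10 of the 25 points lie to its right, from AT1G23700 at 165.8 to AT4G23740 at 597.8.

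By score the 25 peaks were spread over the list. Their median was 102 (95% order-statistic interval 73.6 to 256), and the median of the other 504 peaks was 135 (interval 121 to 151). The order of these medians turned when weak peaks were left out, to 261 for these genes and 236 for the others among peaks with a score of 100 or more, so no direction is read from them. In the first 265 ranks stood 10 of the 25 (40%, 95% Wilson interval 23.4 to 59.3), beside 255 of the 504 others (50.6%, interval 46.2 to 54.9). The first 100 ranks held 5 of the 25 peaks (20%), close to the 18.8% of the others, and the first 50 held 1 (4%), beside 9.72%. None was among the first 20 ranks, which held 3.97% of the others. One of those 20 was the peak of AT2G22190 (score 928.7, rank 15), the phosphatase gene set aside at the start. By kind of protein the scores overlapped throughout. Receptor kinases had 90.5 to 582.4, leucine-rich repeat kinases 54.5 to 597.8, other protein kinases 56.5 to 499.0 and phosphatases 51.3 to 312.6. With 2 to 8 genes in all but 1 of these kinds, no order among them can be read.

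Peak centres were annotated to a promoter for 7 of the 25 (28%, 95% Wilson interval 14.3 to 47.6), and for 207 of the 504 other peaks (41.1%, interval 36.9 to 45.4). Intergenic centres numbered 8 (32%, interval 17.2 to 51.6), beside 113 of 504 (22.4%, interval 19 to 26.3). Exons held 6 (24%, interval 11.5 to 43.4), beside 60 of 504 (11.9%, interval 9.36 to 15). Of the 6 exon peaks, 5 were in exon 1 of the named gene itself, at PYL5, HAE, AT1G25320, CPK9 and AT5G43020. Across the other peaks, 41 of 504 (8.13%, interval 6.05 to 10.9) were in exon 1 of the nearest gene, against 20% (interval 8.86 to 39.1) here. Transcription termination sites held 3 of the 25, an intron held 1, and neither a 5' nor a 3' UTR held any (Wilson upper limit 13.3% for each). For every annotation class the intervals of the 25 and of the other 504 peaks overlapped.

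**Figure D3:**
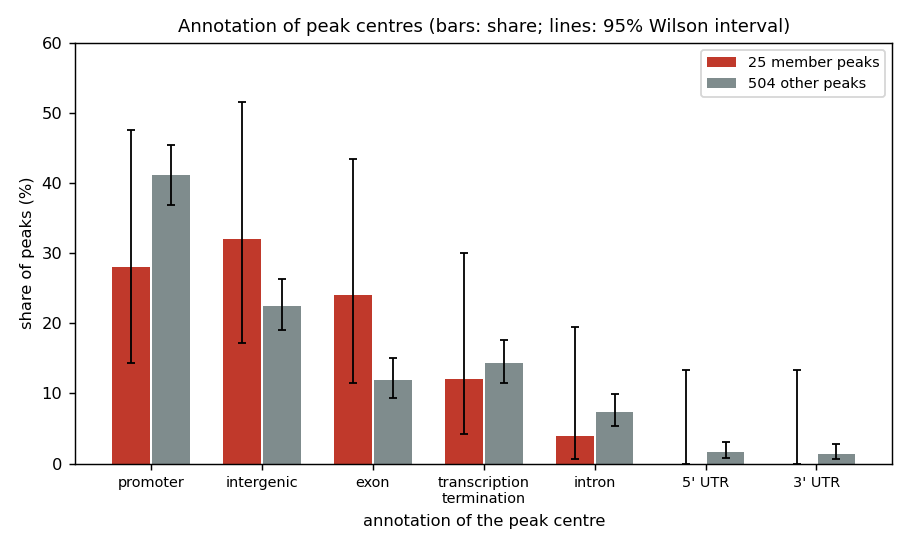
Share of peak centres in each annotation class in percent for the 25 peaks (red) and the 504 other peaks (grey), with 95% Wilson intervals as lines. Promoters held 28% and 41.1%, intergenic sequence 32% and 22.4%, and exons 24% and 11.9%, and the intervals overlap in every class.

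A peak centre was annotated to the assigned gene itself in 12 of the 25 cases (48%, interval 30 to 66.5) and in 319 of the 504 others (63.3%, interval 59 to 67.4). This counts any class other than intergenic, the transcription termination site included. In 5 cases the centre was annotated to another gene. These were the peaks of AT3G46140, BKI1, PAP28, RLP29 and SK32, for which the assignment rests on distance to a TSS alone. The same holds for the 8 intergenic peaks, whose centres were annotated to no gene. Other peaks had a centre annotated to another gene in 72 of 504 cases (14.3%, interval 11.5 to 17.6), beside 20% here.

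The median distance from peak centre to TSS was 1070 bp (order-statistic interval 463 to 1721) for the 25 and 826 bp (733 to 934) for the others. Within 1 kb were 12 of the 25 (48%, Wilson interval 30 to 66.5) and 287 of the 504 (56.9%, interval 52.6 to 61.2). Upstream of the TSS were 17 (68%, interval 48.4 to 82.8) and 285 (56.5%, interval 52.2 to 60.8). The TSS was covered by 10 of the 25 peaks (40%, interval 23.4 to 59.3) and 231 of the 504 (45.8%, interval 41.5 to 50.2). Each of these intervals overlapped its counterpart.

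Widths had close medians in both sets when all peaks were used. The median was 1168 bp (order-statistic interval 1024 to 1648) and that of the others 1166 bp (1115 to 1262). Without peaks inside transposons these medians were 1493 and 1168 bp. In the higher-scoring part of the list they were 1132.5 and 1233 bp, so no direction is read. The 25 ranged from 907 to 2152 bp and the others from 612 to 5326 bp. Spearman's rho between score and width was 0.28 over the 25 peaks and 0.19 over the 504, as a description of peaks that share 1 library. The 4 widest of the 25 were those of AT1G25320, CRN, HAE and PAP28, and at these the score ran from 108.5 to 582.4.

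**Figure D4:**
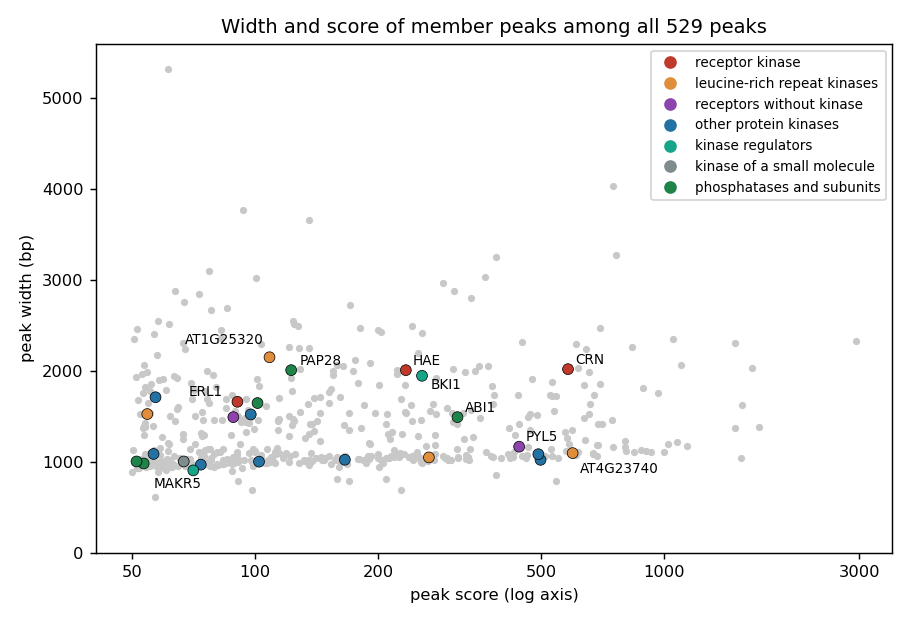
Peak width in bp against peak score on a log axis for the 25 peaks (coloured by kind of protein, with 10 labelled) and the 504 others (grey). The 25 run from 907 bp at MAKR5 to 2152 bp at AT1G25320 and lie within the range of the other peaks.

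Transposon annotation marked 2 of the 25 peak centres (8%, interval 2.22 to 25), at AT1G66920 and AT1G23700, and 3 of the 504 others (0.595%, interval 0.203 to 1.74). The intervals do not overlap, but the count rests on 2 genes and was noticed after the values were seen. Another peak lay within 5 kb of 3 of the 25 peaks, at AT4G23740, PK1B and LPPepsilon2, and of 92 of the 504. In each of these 3 cases the next peak was assigned to the adjacent protein-coding gene. The median gap to the next peak was 100 kb for the 25 and 48.5 kb for the others, and no interval was computed. More than 1 peak was assigned to 17 of the other genes and to none of the 25. The part of this in the gaps was not tested. By chromosome, 9 of the 25 peaks (36%) were on chromosome 5, which held 110 of the 504 others (21.8%). Each other chromosome held a smaller share of the 25 (12 to 20%) than of the others (14.5 to 26.4%). Chromosomes were not in the plan and no interval was computed, so no excess is read.

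The wider pathways were read through 10 lists of 89 known signalling genes, of which 6 were the nearest gene of a peak (6.74%, Wilson interval 3.13 to 13.9). Among all 37899 nuclear genes in the RefSeq table, 1.32% were, and among protein-coding genes 1.75%. The lists were chosen with earlier results of these data known, so no excess is read from these or the following shares. The 6 were CRN, ERL1, HAE, BKI1, ABI1 and BRI1. All but ERL1 had a score of 100 or more, so 5 list genes did (5.62%), beside 0.807% of nuclear and 1.07% of protein-coding genes. Protein-coding neighbours on both sides of the nearest gene were then counted too, by gene order and whatever their distance from the peak. This included 12 list genes (13.5%), beside 3.74% of nuclear and 5.09% of protein-coding genes. BRI1 (AT4G39400) is the brassinosteroid receptor kinase, and it was not one of the 25 because its description does not use the words searched for. It had a higher score than any of the 25, 669.0 (rank 37), in an intergenic peak on chromosome 4 from 18320995 to 18322091 centred 3118 bp upstream. The brassinosteroid list of 11 genes had a peak at the receptor BRI1 and one at its inhibitor BKI1, and none assigned to the co-receptor BAK1 or the kinase BIN2.

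CRN was the 1 of 11 genes of the CLAVATA and meristem list with a peak, and none was assigned to CLV1, CLV2 or the BAM receptor kinases. In the list of 12 receptor kinases of organ growth and patterning, ERL1 and HAE had one, while ER and ERL2, the other members of the ERECTA family, and HSL2, which acts with HAE in shedding, did not. ABI1 was the 1 of 6 genes in the phosphatase list. Its relatives ABI2, HAB1 and HAB2 had none. The list of hormone receptors does not hold PYL5 or BRI1, nor does that of mitogen-activated cascades hold MAPKKK18, all of which had a peak. No peak was assigned to any of the 15 hormone receptors listed (Wilson upper limit 20.4%), 4 kinases of auxin transport (49%) or 9 genes of mitogen-activated cascades (29.9%). The same held for 6 energy and stress kinases (39%), 9 photoreceptors (29.9%) and 6 immune receptors (39%). These upper limits show that the short lists say little about lower shares.

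Families of similar name had 1 peak gene each. PYL5 was the 1 of 12 genes with a PYR or PYL symbol in the gene table, MAKR5 the 1 of 6 MAKR genes, RLP29 the 1 of 54 RLP genes, CPK9 the 1 of 29 CPK genes and MAPKKK18 the 1 of 13 genes named MAPKKK with a number. These families were looked up after the 25 genes were known, so the first gene of each was given by the choice.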

How the data were processed

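Per the file headers, HOMER annotatePeaks.pl with tair10 annotated peaks of the LFY library called against a contrast that is not named. FastQC, MACS 1.4 and TAIR10 are also in the submitters' processing notes. Aligner, calling threshold, duplicate handling and pooling were not given in the sources used here. The deposited score is the value the authors' caller gave each peak, from 50.0 to 2952.3, on a scale no header states, so scores are compared only within this list, as ranks, medians and ranges. A caller that compares with input drops regions high in both libraries, and the gene with the nearest TSS need not be the one regulated.

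All 529 peaks entered. Positions are those of the list. RefSeq TAIR10.1 matched 499 of 512 loci and gave symbols and gene order, with no coordinates taken from it. Wilson and order-statistic intervals (95%) were tested on simulated data, and for a count of 0 the upper limit is the upper end of the Wilson interval. No test was made, since peaks of 1 library are not replicates. By the planned rule the strongest, the widest, those in exons or introns, 3 per protein class and list genes with a peak are named. The rest of the 25, genes without a peak, neighbours, families and the finer grouping of kinases were added after values were seen. Members and lists were chosen with earlier results of these data known. Python 3.11.15, SciPy 1.17.1, NumPy 2.4.6, pandas 2.3.3 and matplotlib 3.10.9 were used.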

Additional observations from a re-analysis of the deposited data

How the results depend on the processing

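Leaving out weak peaks changed the count of genes, as such a threshold must. In the higher-scoring part of the list 10 of the 25 genes were left, and with scores of 100 or more 14 were. Their median scores were then 377 and 261, and those of the other peaks under the same limits 276 and 236, so the 25 no longer had the lower median; the cause of that turn was not tested. Counting protein-coding neighbours by gene order raised the count of signalling list genes from 6 to 12, and without neighbours a score of 100 or more left 5. Whole words, rows described as hypothetical and 1 peak per gene changed nothing in the 25. Keeping AT2G22190 gave 26 genes and searching aliases 28. Searching aliases, leaving out kinase regulators and the small-molecule kinase, leaving out transposon peaks, and the shares and medians in the higher-scoring part were chosen after seeing the data. Over the alternatives run for each (score limits, 3 kb limit, wording, 1 peak per gene, genes or peaks left out or added), the promoter share (20 to 34.5%), intergenic share (26.1 to 40%), share within 1 kb (40 to 57.1%), share upstream (60 to 76.2%), median width (1114 to 1493 bp) and median distance (859 to 1217.5 bp) stayed within the intervals of the reported values. In the higher-scoring part the share upstream (60%) was below that of the other peaks (61.2%). The share of all kinase, phosphatase and receptor genes of the genome with a peak, and promoter motifs, were not run. No paired analysis was possible because each group has 1 library. Unknown depth leaves the precision of single scores unknown.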

Other observations

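Genes beside the 25 in the gene order include known regulators. Neighbours were taken on both sides of the named gene, and their distance from the peak was not measured. ABI1 stands between MEK1 (also MKK1), a kinase of a mitogen-activated cascade, and RPS2. SK32 stands between ANL2 and BSK3, a brassinosteroid signalling kinase gene. The peak of SK32 was centred in ANL2, so BSK3 is on the far side of SK32 from that centre. AT1G25320 is adjacent to CES, a bHLH gene, CRK3 to ROPGAP3, and AT1G80380 lies between CYCA2;4, a cyclin gene, and IAA15, an auxin response gene. None of these neighbours was itself the nearest gene of a peak.

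Other list genes were counted only as neighbours, in gene order, of a gene with a peak. TOR, the growth-controlling kinase, is next to AT1G50020 (score 72.8, promoter), KIN10, the energy-sensing kinase, is next to HYP1 (141.9, promoter), GID1B, a gibberellin receptor gene, is next to AT3G63006 (170.1, intergenic), and EMS1, an anther receptor kinase gene, is next to ML4 (216.5, intergenic).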
